A study of Homo sapiens with 48 samples.

Results

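SOX4, SOX11 and SOX12 are the 3 members of the SOXC group of transcription factors. They were found by their gene names in the count table of each library and are 3 of the 19923 protein-coding genes counted there. SOXC proteins bind DNA through an HMG box, a domain shared by all SOX proteins, and activate transcription through a region at their carboxyl end. In the developing nervous system they act in neural progenitors and young neurons, often beside POU family factors, and they switch on neuronal cytoskeleton genes. SOX4 and SOX11 are both needed for growth of the sympathetic nervous system, the lineage from which neuroblastoma arises, and SOX11 is known as a lineage factor of adrenergic neuroblastoma. SOX12 is the weaker activator of the 3 and the least studied.

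The genes were measured by poly(A) RNA sequencing in Kelly and NGP, 2 human neuroblastoma lines of WT genotype that the labels call MYCN-amplified. Each line was given 8 µM STM2457 or its solvent DMSO for 3 or 6 days and then 10 µg/ml actinomycin D for 0, 3 or 6 h, with 2 libraries for each of the 24 combinations and 48 in all. STM2457 blocks the catalytic site of METTL3, the enzyme that writes N6-methyladenosine (m6A) into mRNA. Actinomycin D stops transcription, so a level after 3 or 6 h reflects how much of the mRNA present at 0 h is left. The labels do not say whether the 2 libraries of a group came from separate cultures, so the p-values measure only the spread between these libraries.

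Fragments assigned to genes ranged from 11139550 to 21942238 per library, and the synthetic ERCC spike-in RNAs took 0.265 to 0.671% of all counted fragments. The counts of the SOXC genes ranged from 219 to 4894 for SOX4, from 2195 to 14367 for SOX11 and from 612 to 4475 for SOX12, and all 3 passed the filter on low counts in both lines. Of 8 adrenergic neuroblastoma markers, 8 had a mean of at least 1 CPM in Kelly and 7 in NGP, where TH was below it, and of 8 mesenchymal markers 5 in Kelly and 6 in NGP. None of 5 blood and endothelial markers reached 1 CPM in either line. CPM here is the count scaled to a common library size after TMM, which takes the typical gene as unchanged, and RPKM is CPM per kb of gene length. Unless stated otherwise, changes are log2 values ± SE on TMM scaling, and a gene is called at an adjusted p below 0.05 in edgeR's quasi-likelihood test. In bulk RNA, fewer cells that express a gene and less of its RNA in each cell cannot be told apart.

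All 3 SOXC genes are encoded in a single exon on the plus strand (GRCh38), and no other protein-coding gene overlaps them in the annotation. SOX4 lies on chromosome 6 (chr6:21593751-21598619, 4869 bases), SOX11 on chromosome 2 (chr2:5692384-5701385, 9002 bases) and SOX12 on chromosome 20 (chr20:325595-330224, 4630 bases). The coding parts are short and GC-rich, at 70.5, 68.0 and 72.9% GC, and encode 474, 441 and 315 residues. The 3′ UTRs are 2660 bases in SOX4, 7338 in SOX11 and 3352 in SOX12. The longest run of identical bases between any pair was 27 for SOX4 and SOX11, 33 for SOX4 and SOX12 and 35 for SOX11 and SOX12, all in the coding part. How many fragments were assigned to the wrong member was not tested.

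METTL3 methylates adenosines in a short consensus of which GGACT is a common form, and it favours the end of the coding part and the start of the 3′ UTR. The transcript strand was searched for GGACT, which occurred 8 times in SOX4, 8 in SOX11 and 12 in SOX12. Per kb these are 1.64, 0.889 and 2.59, against a median of 0.924 over 18656 genes, and they rank at the 82.9, 47.8 and 96.4 percentile. A pair of sites near the end of the coding part is kept between members: SOX4 and SOX12 share one 84 bases before the end of the stop codon, and SOX11 and SOX12 share one 45 bases before it. They are shown because SOX12 holds both and is the member whose loss was called different with STM2457 on TMM scaling. GGACT is in capitals on the GRCh38 plus strand. A match to these letters does not show that the site is methylated. Whether these sites bear on the loss of the mRNA was not tested.
SOX4, coding, chr6:21595863-21595891: cttcgagttcccGGACTactgcacgcccg
SOX12, coding, chr20:326776-326804: cttcgagttcccGGACTactgcacccccg
SOX11, coding, chr2:5693990-5694018: gatgatcgcgggGGACTggctggaggcga
SOX12, coding, chr20:326815-326843: gatgatcgcgggGGACTggcgcccgtcta

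AU-rich elements in 3′ UTRs are the best known marks of short-lived mRNAs, and their core pentamer reads ATTTA in DNA letters. It occurred 4 times in the 3′ UTR of SOX4, 19 times in that of SOX11 and 0 times in that of SOX12, or 1.504, 2.59 and 0 per kb, against a median of 1.91 per kb over 13027 genes with a 3′ UTR of at least 500 bases. The longer form TTATTTATT, which overlaps the pentamer and is held by 11.5% of those genes, occurred 1 time in SOX11 and 0 times in the others. The SOX4 pentamers are shown because SOX4 lost most over 6 h, and the SOX11 nonamer because its holder lost least. Whether these elements bear on the loss was not tested. Capitals mark the searched letters on the plus strand.
SOX4, 3′ UTR, chr6:21597402-21597430: atatgtggacgtATTTAtactggccaaac
SOX4, 3′ UTR, chr6:21597604-21597632: ttaattttttatATTTAaatgtagacttt
SOX4, 3′ UTR, chr6:21598154-21598182: ttgtatttgactATTTAatcctttctact
SOX4, 3′ UTR, chr6:21598279-21598307: acatctttgtacATTTAagtctgtattat
SOX11, 3′ UTR, chr2:5701145-5701173: aaattaagcaTTATTTATTgaaaactatg

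Before actinomycin D and in DMSO, SOX11 and SOX4 were more abundant in NGP than in Kelly, while SOX12 gave no called difference. For SOX12 at 6 days this depended on the settings. Per kb, SOX11 stood at 26.8 ± 1.4 RPKM (SD, n = 2) at 3 days and 27.2 ± 0.36 at 6 days in Kelly, and at 87.5 ± 2.4 and 88.0 ± 3.3 in NGP. SOX4 stood at 15.02 ± 0.23 and 15.8 ± 0.47 RPKM in Kelly and at 40.9 ± 0.59 and 52.0 ± 5.2 in NGP. SOX12 stood at 39.5 ± 2.7 and 43.2 ± 2.8 RPKM in Kelly and at 38.2 ± 1.5 and 35.8 ± 2.6 in NGP. The order per kb was therefore SOX12, SOX11, SOX4 in Kelly, and SOX11, SOX4, SOX12 in NGP, where SOX4 and SOX12 lay close together at 3 days.

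In the joint fit of both lines, SOX11 was higher in NGP by 1.71 ± 0.07 (edgeR adjusted p = 1.10e-32) at 3 days and 1.69 ± 0.07 (adjusted p = 1.41e-32) at 6 days. SOX4 was higher in NGP by 1.44 ± 0.16 (adjusted p = 1.48e-11) and 1.71 ± 0.16 (adjusted p = 2.36e-14). Line differences of either sign were common, with 30.0% of all genes called at 3 days and 31.6% at 6 days, so 2 of 3 members called says little about the family. SOX12 was not called, at -0.05 ± 0.12 (adjusted p = 0.880) and -0.27 ± 0.12 (adjusted p = 0.0659), and on ERCC scaling its 3-day value took the other sign, at 0.36 (adjusted p = 0.0103). At 6 days the SOX12 value was called, as lower in NGP, under 7 of 10 other settings, ERCC scaling among them (-0.41, adjusted p = 0.00352). It was also called without Kelly replicate 2 (-0.33) or NGP replicate 2 (-0.34).

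**Figure D1:**
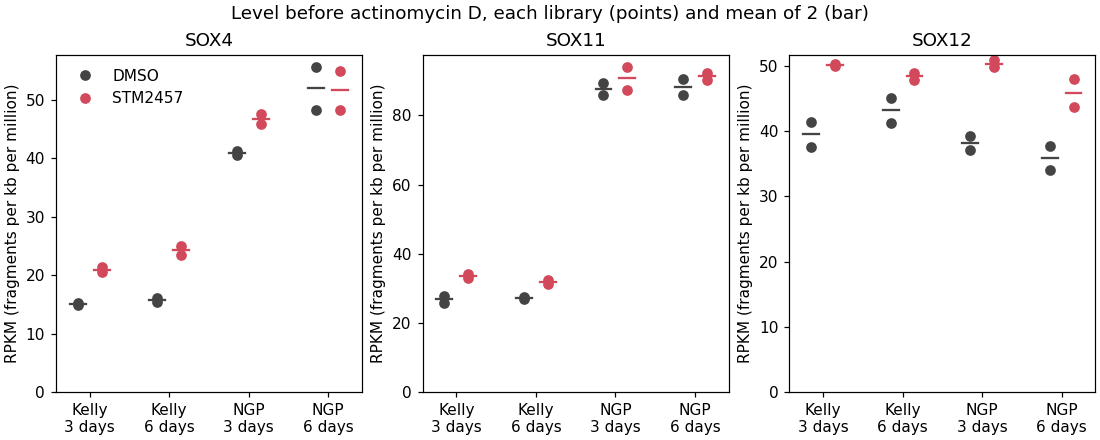
Level of each SOXC gene before actinomycin D in RPKM, with 1 point per library and a bar at the mean of 2, for DMSO and STM2457 in each line and duration. SOX11 and SOX4 are higher in every NGP library than in every Kelly library of the same treatment, while all 16 SOX12 points lie between 34.0 and 50.8 RPKM.

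STM2457 alone, before transcription was blocked, moved the SOXC genes by at most 0.64 on TMM scaling, for SOX4 in Kelly at 6 days. The call differed by gene and line. SOX12 rose in NGP at both durations. At 3 days its libraries read 182 and 172 CPM in DMSO and 235 and 231 in STM2457, a rise of 0.39 ± 0.09 (edgeR adjusted p = 0.00443), and at 6 days they read 158 and 174 against 202 and 222, a rise of 0.36 ± 0.09 (adjusted p = 0.00534). In each case both treated libraries were above both controls. In Kelly the SOX12 libraries read 174 and 192 CPM in DMSO and 231 and 233 in STM2457 at 3 days (0.34 ± 0.11, adjusted p = 0.124), and 209 and 191 against 227 and 221 at 6 days (0.19 ± 0.11, adjusted p = 0.590). These did not pass the test, although here too no treated library fell below a control.

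Among the 4 comparisons, SOX4 was called higher on TMM scaling only in Kelly at 6 days. Its libraries there read 75.5 and 78.8 CPM in DMSO and 114 and 122 in STM2457. This rise of 0.64 ± 0.18 (edgeR adjusted p = 0.0143) was not called on ERCC scaling (0.38, adjusted p = 0.212). At 3 days in Kelly they read 72.3 and 74.0 against 99.9 and 104 CPM (0.47 ± 0.18, adjusted p = 0.240). Both treated libraries were above both controls there too. In NGP the SOX4 differences were 0.18 ± 0.11 at 3 days (adjusted p = 0.536) and -0.01 ± 0.11 at 6 days (adjusted p = 0.995), and at 6 days the treated libraries (268 and 235 CPM) overlapped the controls (271 and 235). SOX11 passed the test in none of the 4: the differences were 0.31 ± 0.09 (adjusted p = 0.0501) and 0.25 ± 0.09 (adjusted p = 0.131) in Kelly, and 0.04 ± 0.06 (adjusted p = 0.890) and 0.05 ± 0.06 (adjusted p = 0.731) in NGP. Its Kelly value at 3 days was near the threshold and was called under 6 of 11 other settings. That at 6 days was called with DESeq2, limma-voom and the joint fit of both lines. All 3 genes read higher in STM2457 in Kelly at both durations on TMM scaling. On ERCC scaling SOX11 and SOX12 at 6 days took the other sign (-0.0046 and -0.067). At 3 days on that scaling all 3 were called (0.87 for SOX4, 0.71 for SOX11 and 0.74 for SOX12), where the median of all genes moved up too. The share of all genes called on that scaling is not given, so these calls say little about the members.

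The share of all genes called at 0 h was 1.68 and 3.97% in Kelly (3 and 6 days) and 3.70 and 7.99% in NGP, and of the 12 values for the family 3 were called. Each of these calls was lost when certain single libraries were left out. The SOX4 value in Kelly at 6 days was not called without either DMSO library (0.59 without replicate 1, 0.65 without replicate 2) or either STM2457 library (0.66 and 0.57). The SOX12 value in NGP at 3 days was not called without DMSO replicate 2 (0.35) or STM2457 replicate 1 (0.37), nor that at 6 days without DMSO replicate 1 (0.28) or STM2457 replicate 2 (0.28). No difference of the treatment effect between durations or lines was called for any member on TMM scaling. On ERCC scaling the Kelly difference between durations was called for SOX11 (-0.72, adjusted p = 7.48e-06) and SOX12 (-0.80, adjusted p = 5.76e-05), and the 3-day difference between lines for SOX11 (-0.57, adjusted p = 0.000124). On TMM scaling the values between durations ranged from -0.19 to 0.17 (background 0.788% of genes called in Kelly and 2.80% in NGP). Between lines they ranged from -0.29 to 0.05 at 3 days (0.161%) and from -0.63 to 0.19 at 6 days (1.75%), the lowest value at each duration being that of SOX4. The 6-day SOX4 value (-0.63 ± 0.22, adjusted p = 0.193) was called with limma-voom (-0.63), with no filter on low counts (-0.63) and with the libraries of that duration alone (-0.65).

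Over 6 h of actinomycin D, SOX4 lost most and SOX11 least in DMSO, with SOX12 between them in each of the 4 series, a series being 1 line and duration. This order between genes was not tested, and at 3 h in NGP at 6 days more was left of SOX12 (86.3%) than of SOX11 (78.0%). On TMM scaling, SOX4 at 6 h stood at 23.4% of its 0 h CPM in Kelly at 3 days, 35.7% at 6 days, and 32.97 and 33.6% in NGP. SOX12 stood at 31.9 and 41.4% in Kelly and at 37.9 and 55.3% in NGP. SOX11 stood at 72.5 and 61.7% in Kelly and at 70.9 and 68.4% in NGP. All 12 falls passed the test, and since a typical gene is set to no change they are losses relative to that gene, not absolute ones.

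For SOX4 in DMSO the libraries of Kelly at 3 days read 72.3 and 74.0 CPM at 0 h, 27.0 and 29.9 at 3 h, and 19.3 and 14.9 at 6 h. Those of NGP at 3 days read 197 and 201, then 82.7 and 85.0, then 80.3 and 51.0 CPM. No library after actinomycin D reached a 0 h library of its series, and most of the fall was over by 3 h. SOX4 fell over 6 h, with log2 changes of -2.09 ± 0.19 and -1.49 ± 0.18 in Kelly (3 and 6 days) and -1.60 ± 0.12 and -1.61 ± 0.11 in NGP, with edgeR adjusted p between 2.65e-20 and 1.83e-12 in Kelly and of 1.30e-20 and 4.75e-21 in NGP.

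For SOX11 in DMSO the libraries of Kelly at 3 days read 250 and 232 CPM at 0 h, 183 and 169 at 3 h, and 165 and 185 at 6 h, and those of NGP at 3 days read 773 and 804, then 553 and 595, then 542 and 575. The levels at 3 and 6 h overlapped in both series, while both stayed below 0 h. SOX11 fell over 6 h, with changes of -0.46 ± 0.09 and -0.70 ± 0.09 in Kelly and -0.51 ± 0.06 and -0.59 ± 0.06 in NGP (edgeR adjusted p from 1.17e-14 to 1.41e-05).

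For SOX12 in DMSO the libraries of Kelly at 3 days read 174 and 192 CPM at 0 h, 102 and 120 at 3 h, and 42.9 and 73.9 at 6 h. In Kelly at 6 days they read 209 and 191, then 126 and 135, then 77.7 and 87.9 CPM. In NGP at 3 days they read 182 and 172, then 103 and 109, then 66.6 and 67.5 CPM, and at 6 days 158 and 174, then 147 and 139, then 92.1 and 91.4. The level went down at each step in every series, and the last NGP series held more of its SOX12 at 3 h than the others. SOX12 fell over 6 h, with changes of -1.64 ± 0.12 and -1.28 ± 0.12 in Kelly and -1.41 ± 0.10 and -0.89 ± 0.10 in NGP (edgeR adjusted p from 3.88e-29 to 6.00e-13).

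Across all genes, 30.1 and 26.5% were called over 6 h in Kelly DMSO and 37.4 and 36.7% in NGP, in either direction. All 12 family values were called lower, which is above that background in each series. They come from the same 3 genes in each series, so the 12 calls are not independent. Over 3 h the called share was 19.9 and 18.2% in Kelly and 24.1 and 21.4% in NGP, and 11 of the 12 family values were called lower. The other was SOX12 in NGP at 6 days, at -0.23 ± 0.09 (adjusted p = 0.0663). On TMM scaling no difference of the 6 h loss between lines was called for any member, with values from -0.03 to 0.50 at 3 days (1.59% of genes called) and from -0.09 to 0.42 at 6 days (4.25%). On ERCC scaling SOX11 was called at both durations with opposite signs (-0.41, adjusted p = 0.00397, and 0.34, adjusted p = 0.0178) and SOX12 at 6 days (0.61), which was also called with GC and length trends removed (0.55).

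**Figure D2:**
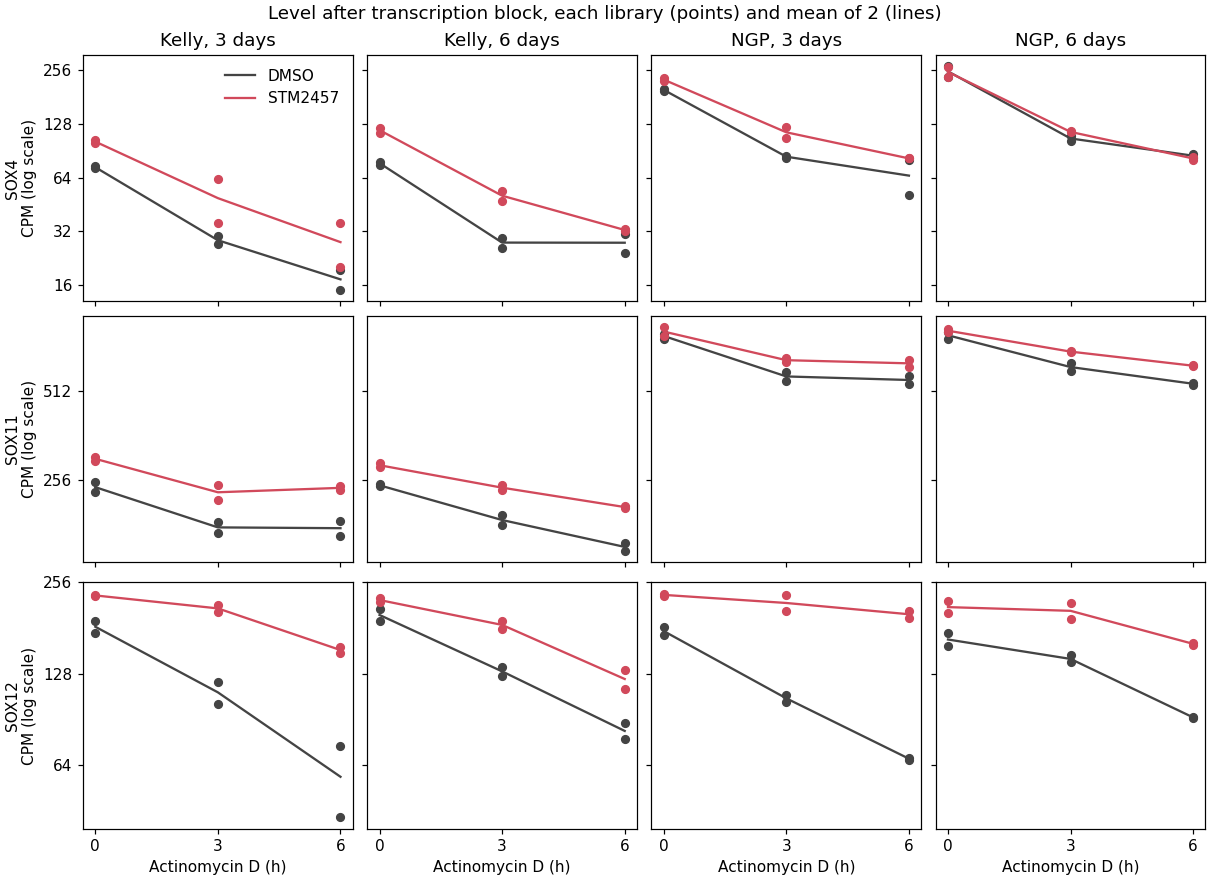
CPM of SOX4, SOX11 and SOX12 (rows, log axis) against hours of actinomycin D in each line and duration (columns), with points for libraries and lines through the means of 2, DMSO in grey and STM2457 in red. The SOX12 lines draw apart over time, most at 3 days. Those of SOX11 draw apart less, and those of SOX4 follow no common course.

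On TMM scaling, a slower loss in STM2457 was called for SOX12, though not in Kelly at 6 days, and for no other SOXC gene. In STM2457 the SOX12 libraries of NGP at 3 days read 235 and 231 CPM at 0 h, 206 and 232 at 3 h, and 196 and 206 at 6 h, so that 86.3% was left at 6 h against 37.9% in DMSO. In Kelly at 3 days they read 231 and 233, then 215 and 205, then 157 and 149 CPM, which leaves 66.0% against 31.9%. In both series each treated library at 6 h was above each DMSO library at 3 h. The decay difference is the change from 0 to 6 h in STM2457 minus that in DMSO, positive where the treated cells kept more. It was 1.17 ± 0.13 (edgeR adjusted p = 6.97e-09) for SOX12 in NGP at 3 days, the smallest p among 14661 genes tested, and 1.05 ± 0.16 (adjusted p = 6.11e-06) in Kelly at 3 days, where only 1 of 16759 genes had a smaller p. The share of genes called was 0.703% in the former and 0.221% in the latter.

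At 6 days the SOX12 difference was smaller. In NGP the treated libraries read 202 and 222 CPM at 0 h, 194 and 219 at 3 h, and 162 and 159 at 6 h, leaving 75.6% against 55.3% in DMSO, and the decay difference was 0.46 ± 0.13 (edgeR adjusted p = 0.0404, with 2.54% of genes called). In Kelly they read 227 and 221, then 191 and 180, then 132 and 114 CPM, leaving 54.8% against 41.4%, and the value of 0.40 ± 0.16 was not called (adjusted p = 0.412, with 0.424% of genes called). The treated 6 h libraries were again above the DMSO 6 h libraries in both lines.

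One library weighed on the Kelly value at 3 days. The DMSO libraries at 6 h held 612 and 1084 fragments of SOX12, and the decay difference was 0.70 (adjusted p = 0.0202) without the former, replicate 1, and 1.49 (adjusted p = 9.99e-14) without the latter, replicate 2. Over the 8 libraries of that contrast left out in turn it stayed called, as it did in NGP at 3 days, where the values ranged from 1.12 to 1.21. In NGP at 6 days the call was lost without DMSO replicate 2 at 0 h (0.38), STM2457 replicate 1 at 0 h (0.39), or any of the 4 libraries at 6 h (0.45 to 0.47), and with limma-voom (0.46) or RLE size factors (0.44). The 3 h version of the decay difference was called for SOX12 in NGP at 3 days (0.66 ± 0.13, adjusted p = 0.0194, with 0.0205% of genes called). That call was lost without DMSO replicate 1 at 0 h (0.61) or 3 h (0.63), or STM2457 replicate 2 at 0 h (0.64) or 3 h (0.57). It was also lost under 4 of 11 other settings, ERCC scaling (0.49) among them. The 3 h value was not called in Kelly at 3 days (0.57 ± 0.16, adjusted p = 0.219, 0.0955% called; 0.70 and called without DMSO replicate 2 at 3 h), Kelly at 6 days (0.33 ± 0.16, 0.0358%) or NGP at 6 days (0.18 ± 0.13, 0.0750%).

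SOX4 and SOX11 gave no called decay difference on TMM scaling. For SOX4 the values were 0.22 ± 0.26 and -0.38 ± 0.26 in Kelly (edgeR adjusted p = 0.938 and 0.760) and 0.10 ± 0.16 and -0.03 ± 0.16 in NGP (adjusted p = 0.934 and 0.993). For SOX11 they were 0.14 ± 0.13 and 0.22 ± 0.13 in Kelly (adjusted p = 0.888 and 0.701) and 0.12 ± 0.08 and 0.16 ± 0.08 in NGP (adjusted p = 0.713 and 0.413). The SOX11 values were positive in all 4 series on TMM scaling, though on ERCC scaling that of Kelly at 3 days was -0.27. The SEs of SOX4 were the largest of the family, and its libraries at 6 h in STM2457 in Kelly at 3 days differed by 35.4 against 20.1 CPM.

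In STM2457 taken alone, each member still fell over 6 h in each series, against 26.9 and 26.4% of all genes called in Kelly and 32.5 and 32.1% in NGP. The changes of SOX4 were -1.87 ± 0.18 at both durations in Kelly and -1.502 ± 0.11 and -1.65 ± 0.12 in NGP. Those of SOX11 were -0.32 ± 0.09 and -0.48 ± 0.09 in Kelly and -0.39 ± 0.06 and -0.43 ± 0.06 in NGP. Those of SOX12 were -0.59 ± 0.11 and -0.88 ± 0.11 in Kelly and -0.24 ± 0.09 and -0.43 ± 0.09 in NGP. The SOX12 fall in NGP at 3 days was weak (edgeR adjusted p = 0.0345) and lost its call without any single library of its 2 groups (-0.27 to -0.22).

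**Figure D3:**
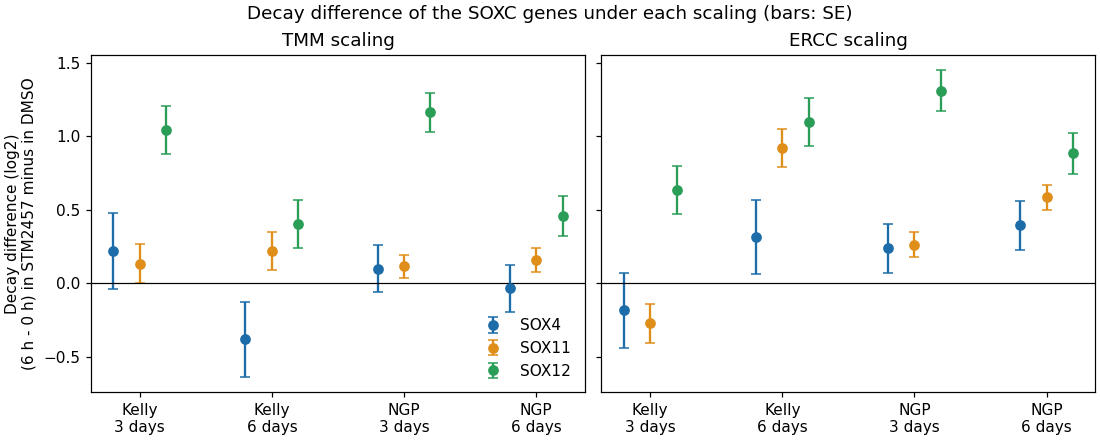
Decay difference of the SOXC genes (log2, bars show SE) in each line and duration, with TMM scaling on the left and ERCC scaling on the right. SOX12 lies above 0 in all 8 positions and is the highest of the 3 genes in each. SOX11 changes sign between the panels in Kelly at 3 days, and SOX4 there and at 6 days in both lines.

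STM2457 and DMSO differed more in SOX12 after actinomycin D than before it. In NGP at 3 days the treatment effect was 0.39 at 0 h, 1.05 ± 0.09 at 3 h (edgeR adjusted p = 6.68e-14) and 1.55 ± 0.10 at 6 h (adjusted p = 4.48e-22), the latter of smallest p among all genes tested there. In Kelly at 3 days it was 0.34, then 0.90 ± 0.11 (adjusted p = 7.45e-11) and 1.38 ± 0.12 (adjusted p = 2.40e-21). At 6 days the values at 3 and 6 h were 0.51 ± 0.11 and 0.59 ± 0.11 in Kelly and 0.54 ± 0.09 and 0.82 ± 0.10 in NGP, all called, though DESeq2 did not call the 3 h value in Kelly (0.50, adjusted p = 0.0550). Of all genes, 5.83, 5.20, 7.93 and 8.64% were called at 3 h, and 7.81, 9.89, 11.6 and 9.16% at 6 h (Kelly at 3 and 6 days, then NGP).

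SOX11 was also higher in STM2457 at these times. At 6 h the Kelly libraries read 165 and 185 CPM in DMSO and 243 and 237 in STM2457 at 3 days, and 156 and 147 against 208 and 205 at 6 days, rises of 0.45 ± 0.09 (edgeR adjusted p = 0.000157) and 0.47 ± 0.09 (adjusted p = 4.29e-05). In NGP at 6 h the rise was 0.21 ± 0.06 at 6 days (adjusted p = 0.00693, not called without DMSO replicate 1, at 0.20), and the value at 3 days was 0.16 ± 0.06 (adjusted p = 0.0549), which was called under 7 of 11 other settings, at up to 0.41 (ERCC scaling, adjusted p = 3.47e-07). At 3 h SOX11 was called in all 4 series, with rises of 0.38 ± 0.09 and 0.37 ± 0.09 in Kelly and 0.19 ± 0.06 at both durations in NGP. On ERCC scaling the NGP value at 3 days was 0.12 and not called. These calls rested on both libraries: they were lost in Kelly at 3 days without DMSO replicate 2 (0.32) or STM2457 replicate 1 (0.29), and at 6 days without replicate 2 of DMSO (0.31) or STM2457 (0.34). In NGP they were lost at 3 days without DMSO replicate 1 (0.14) or either STM2457 library (0.16 and 0.21), and at 6 days without DMSO replicate 1 (0.14) or either STM2457 library (0.19 and 0.18).

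SOX4 was called higher in STM2457 at 3 h in both Kelly series and in NGP at 3 days, by 0.77 ± 0.18 (edgeR adjusted p = 0.00210), 0.88 ± 0.18 (adjusted p = 0.000183) and 0.46 ± 0.11 (adjusted p = 0.00400). At 6 h Kelly at 3 days was called (0.69 ± 0.19, adjusted p = 0.00789) and the other 3 series were not, though on ERCC scaling they were too (0.70 in Kelly at 6 days, where the TMM value was 0.26 ± 0.18, and 0.52 and 0.34 in NGP). The STM2457 libraries of Kelly at 3 days differed between themselves, with 35.5 and 62.5 CPM at 3 h and 35.4 and 20.1 at 6 h, and the calls were lost without the higher one: the 3 h value was then 0.30 (replicate 2 out) and the 6 h value 0.22 (replicate 1 out), and the latter was 0.52 and not called without DMSO replicate 2. With limma-voom neither was called (0.69 and 0.67). In NGP at 3 days the 3 h value was 0.36 and not called without STM2457 replicate 1, and the 6 h value of 0.29 ± 0.12 (adjusted p = 0.0996) became 0.67 and called without DMSO replicate 1. In NGP at 6 days the values were 0.13 ± 0.11 at 3 h and -0.04 ± 0.12 at 6 h, the latter of the other sign, and called, on ERCC scaling (0.34, adjusted p = 0.0211).

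**Figure D4:**
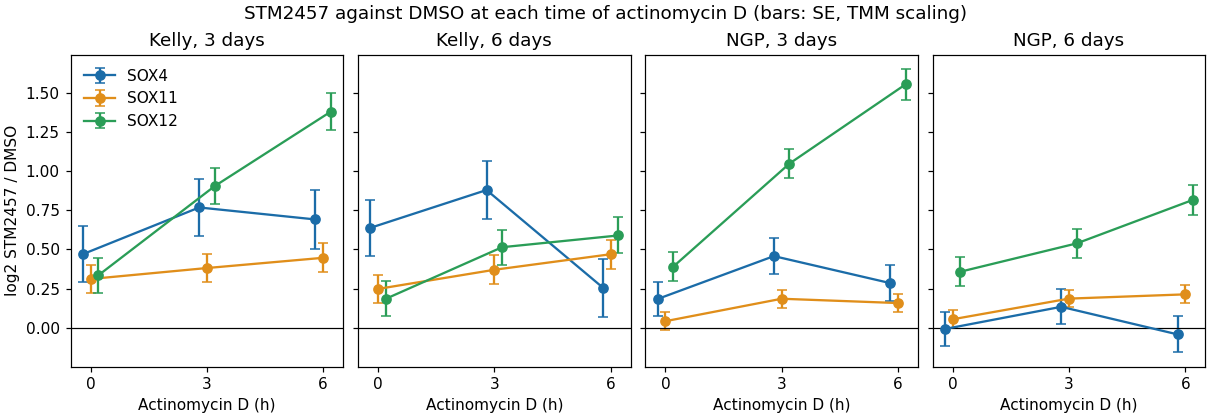
STM2457 against DMSO (log2, bars show SE, TMM scaling) at 0, 3 and 6 h of actinomycin D in each line and duration. The SOX12 points climb with time in all 4 panels, most steeply at 3 days, while SOX11 stays between 0.04 and 0.47 throughout and SOX4 has no common course.

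Scaling to the ERCC spike-ins sets the amount of spike-in, not the typical gene, as the constant, and so includes a loss shared by all genes. On it the median of all genes at 6 h in DMSO moved by -0.34 and -1.18 in Kelly and by -0.81 and -1.10 in NGP, in STM2457 by -0.72 and -0.45 in Kelly and by -0.64 and -0.67 in NGP, and the median decay difference was -0.37 and 0.70 in Kelly and 0.14 and 0.41 in NGP. The median treatment effect at 0 h moved by 0.38 and -0.21 in Kelly and by 0.10 and -0.02 in NGP. The labels do not say when the spike-ins were added. The SOX12 decay differences on this scale were 0.64 (adjusted p = 0.00292) and 1.10 (adjusted p = 2.82e-08) in Kelly and 1.31 (adjusted p = 2.72e-10) and 0.89 (adjusted p = 1.01e-06) in NGP. All 4 lay above the median of all genes. The Kelly value at 6 days passed the test here but not on TMM scaling, and cannot by itself be read as a result about SOX12. SOX11 was called at 6 days in both lines (0.92 and 0.59), above the medians there. The 6-day values include the shift of the median of all genes (0.70 in Kelly and 0.41 in NGP). The share of all genes called on this scale is not set beside these calls, so their number says little about the members. SOX4 was called in none, with -0.18 and 0.32 in Kelly and 0.24 and 0.39 in NGP. The share of SOX4 left at 6 h in DMSO was 14.7 to 18.9% on this scale, that of SOX12 17.0 to 25.9% and that of SOX11 25.3 to 53.8%. Scaling acts on all genes of a library alike, so the order between genes is that on TMM scaling.

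The ratio of one SOXC gene to another within a library needs no scaling between libraries, and is given as a description without a test. Per kb, log2 of SOX12 over SOX11 went from 0.56 ± 0.17 (SD, n = 2) at 0 h to -0.67 ± 0.44 at 6 h in DMSO in Kelly at 3 days, but only from 0.58 ± 0.04 to 0.31 ± 0.02 in STM2457. In NGP at 3 days it went from -1.20 ± 0.10 to -2.10 ± 0.045 in DMSO, and from -0.85 ± 0.10 to -0.70 ± 0.01 in STM2457, where both 6 h libraries lay above those at 0 h. The change in STM2457 exceeded that in DMSO by 0.96 and 1.05 at 3 days in Kelly and NGP, and by 0.18 and 0.30 at 6 days. For SOX4 over SOX11 the same quantity was 0.04 and 0.03 at 3 days and -0.59 and -0.19 at 6 days.

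**Figure D5:**
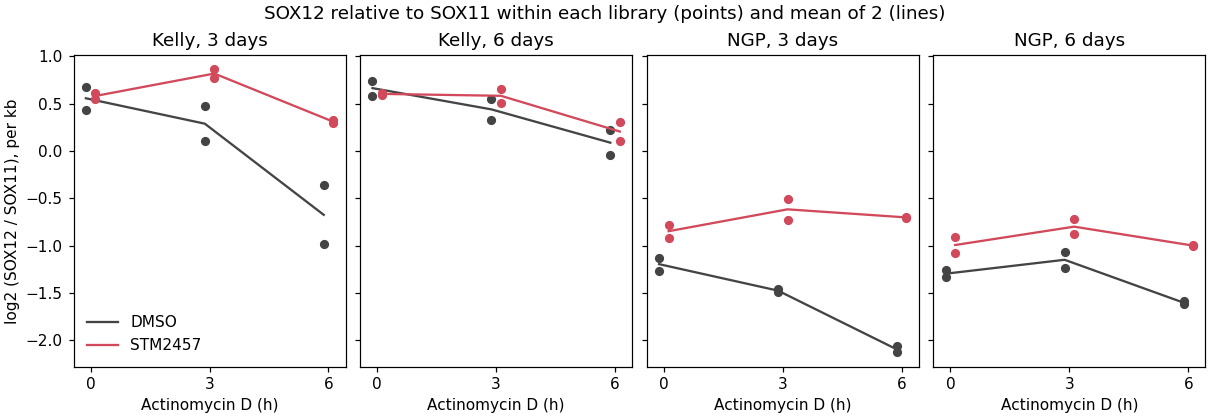
Log2 ratio of SOX12 to SOX11 per kb within each library (points) and its mean over 2 libraries (lines) against hours of actinomycin D, DMSO in grey and STM2457 in red. At 3 days the ratio falls by 1.23 in Kelly and 0.90 in NGP in DMSO, against a fall of 0.27 and a gain of 0.15 in STM2457, and at 6 days the lines are closer.

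The loss of SOX12 in NGP differed between the durations of treatment, in contrasts added after the values of each duration were seen. The fall over 6 h in DMSO was smaller at 6 than at 3 days by 0.52 ± 0.13 (edgeR adjusted p = 0.0155, with 2.54% of genes called), and the decay difference was smaller by 0.71 ± 0.19 (-0.71, adjusted p = 0.0379, with 1.04% called). Both contrasts share the DMSO libraries, so they are not independent. The former was lost without DMSO replicate 1 at 0 h of either duration (0.47 and 0.44), and the latter without any of 8 of its 16 libraries (-0.73 to -0.63), and neither was called with limma-voom (0.52 and -0.70) or on ERCC scaling (0.27 and -0.43). In Kelly the same differences were 0.36 ± 0.16 (adjusted p = 0.518, 0.638% called) and -0.64 ± 0.23 (adjusted p = 0.469, 0.197% called), and both were called without the DMSO library of replicate 2 at 6 h and 3 days (0.81 and -1.09), while on ERCC scaling both took the other sign (-0.48 and 0.46). Before actinomycin D, SOX4 in NGP DMSO was higher at 6 than at 3 days by 0.33 ± 0.11 (adjusted p = 0.0370, 12.1% called), while the Kelly value of 0.06 ± 0.18 was not called (8.52% called). The NGP call was lost without either 3-day library (0.32 and 0.34) or replicate 1 at 6 days (0.23), with DESeq2 (0.30) or on ERCC scaling (0.16).

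The other 16 SOX genes listed were low in both lines. Filters on low counts left 10 of them in Kelly and 9 in NGP, and in the DMSO libraries at 0 h the highest mean among them was that of SOX9 in Kelly, the cartilage and glia factor, at 6.72 ± 1.99 RPKM (SD, n = 4), and 7 were at 0 in all of those libraries of both lines (SOX1, SOX3, SOX8, SOX14, SOX17, SOX21 and SOX30, named after their values were seen). Over 6 h in DMSO 2, 1, 2 and 3 were called lower and none higher (Kelly at 3 and 6 days, then NGP), near or below the 30.1, 26.5, 37.4 and 36.7% of all genes called. None was called for the treatment effect at 0 h or for the decay difference in any of the 4 series. SOX9 in Kelly fell over 6 h in DMSO, by a log2 change of -3.12 ± 0.44 (edgeR adjusted p = 3.79e-10) at 3 days and -2.04 ± 0.42 (adjusted p = 2.43e-05) at 6 days. SOX5, which lacks an activation domain, was lower in NGP than in Kelly at 6 days by a log2 change of -1.58 ± 0.30 (adjusted p = 1.21e-05).

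Of 15 reported SOXC targets and partner factors, all tested, the treatment effect at 0 h was called higher in 2, 3, 1 and 2 and lower in 0, 0, 2 and 3 (Kelly at 3 and 6 days, then NGP), beside 1.68, 3.97, 3.70 and 7.99% of all genes called. MARCKSL1, which codes for an actin-binding protein, rose in all 4, by 0.30 ± 0.07 and 0.42 ± 0.07 in Kelly and by 0.25 ± 0.07 and 0.51 ± 0.07 in NGP. DCX, coding for the microtubule protein doublecortin, rose in Kelly by 0.74 ± 0.19 and 0.79 ± 0.19. NEUROD1, a neuronal differentiation factor, fell in NGP, at -0.86 ± 0.11 and -0.41 ± 0.10. Over 6 h in DMSO 5, 4, 5 and 3 members were called higher relative to the typical gene and 4, 4, 4 and 5 lower, beside 30.1, 26.5, 37.4 and 36.7% of all genes called. Those lower included POU3F2, a POU factor that acts beside SOXC proteins, in each series (-1.48 ± 0.27 and -1.56 ± 0.26 in Kelly, -1.64 ± 0.16 and -1.08 ± 0.15 in NGP). The decay difference was called for none in Kelly and, in NGP, for MAP2, a dendrite protein, at -0.40 ± 0.10 and 0.39 ± 0.10 and for STMN1, coding for stathmin, at -0.30 ± 0.07 (6 days), beside 0.221 and 0.424% of all genes called in Kelly and 0.703 and 2.54% in NGP.

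Of 14 adrenergic transcription factors, all tested and INSM1 also in the list of targets, 14 were called lower over 6 h in DMSO in each of the 4 series, where 30.1, 26.5, 37.4 and 36.7% of all genes were called in either direction, with medians of -3.05 and -2.52 in Kelly and -2.01 and -1.90 in NGP beside medians of all genes between -0.05 and 0.05. The decay difference of these factors was called higher in 1, 0, 2 and 1 and lower in 0, 1, 0 and 2, beside 0.221, 0.424, 0.703 and 2.54% of all genes. HAND2, a sympathetic lineage factor, was called higher at 3 days in both lines, by 0.36 ± 0.09 and 0.53 ± 0.08, values below those of SOX12.

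Pattern likeness was measured as the smaller of the 2 Pearson correlations, 1 per line, of log2 CPM over the 12 group means, among 8461 genes of at least 10 CPM in both lines. The points share libraries, scaling and the common course of actinomycin D, so the values are a description. Among the genes most like SOX4 were TSHZ3 (0.957), H4C13 (0.954), OSER1 (0.954) and GCC1 (0.953). Those most like SOX11 were RBM20 (0.928), CABLES1 (0.923), WDCP (0.921), LHFPL2 (0.916) and POLR1B (0.916). Those most like SOX12 were TRAPPC12 (0.938), CCDC85B (0.933), EEF1AKNMT (0.930), UQCRFS1 (0.921) and RRAGA (0.899). The SOXC genes were not each other's nearest: the value was 0.841 for SOX4 and SOX11, 0.747 for SOX11 and SOX12 and 0.630 for SOX4 and SOX12, where SOX12 ranked 1474 in the order of likeness to SOX4.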

How the data were processed

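RNA was sequenced in 48 libraries of 24 groups. Per the file headers, the authors deposited raw counts made by featureCounts (Subread 1.5.3) on paired reads, against GENCODE 33 protein-coding genes and 92 ERCC spike-ins, with no strand option named. FastQC 0.11.5, Trimmomatic 0.36, HISAT2 2.1.0 and GRCh38 are named in the submitters' processing notes. Counts were tested with edgeR 4.0.16 (quasi-likelihood, TMM, filterByExpr, R 4.3.3), per line over 12 groups (16759 genes in Kelly, 14661 in NGP) or jointly (17343 genes) to compare lines, with Benjamini-Hochberg adjustment over all genes. The SE is the log2 change divided by the root of the F statistic. The alternatives used DESeq2 1.42.0 and limma 3.58.1 among others. Positions and motifs are from GRCh38 with GENCODE 44. Named list genes were at most the 4 largest called changes of a list at a mean of at least 10 CPM. The members and lists were chosen with earlier results of these data known. On simulated counts for the 3-day decay difference, 48% of 2-fold and 82% of 4-fold changes were called in Kelly (15806 genes), and 49 and 79% in NGP (14038 genes). Of the genes called there, 5.1 and 7.2% were false. The simulated counts had no actinomycin D course, and the changed genes were picked at random only among genes above a floor on the mean count. These rates are therefore not the power for the SOXC genes. One gene that the naming rule selects is not reported here.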

Additional observations from a re-analysis of the deposited data

Results flagged for a closer look

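For SOX12 in NGP, the fall over 6 h of actinomycin D in DMSO was smaller at 6 than at 3 days by 0.52 (edgeR adjusted p = 0.0155), and the decay difference was -0.71 at 6 relative to 3 days (adjusted p = 0.0379). Both are tests of a difference between durations, added after the values of each duration were seen. Each call was lost when certain single libraries were left out (0.44 to 0.59 and -0.78 to -0.63). Each was also lost under 3 of 10 other settings. The values rest on 2 libraries per group and share the DMSO libraries.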

How the results depend on the processing

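Values are log2 changes. Of 636 refits, under settings other than leaving out a library, of the 60 results that answer a comparison, 575 kept direction and side of the threshold. The cause of the others was not tested unless stated. ERCC scaling gave more of these changes than any other setting. On it, the SOX12 line difference was 0.36 at 3 and -0.41 at 6 days. The 0 h STM2457 effect was 0.71 (SOX11), 0.74 (SOX12) and 0.87 (SOX4) in Kelly at 3 days, all called, and -0.0046, -0.067 and 0.38 at 6 days, none called. Its difference between durations was -0.72 (SOX11), -0.80 (SOX12) and -0.49 (SOX4) in Kelly and -0.13 (SOX11) in NGP. Its difference between lines was -0.57 (SOX11) and -0.25 (SOX12) at 3 days and 0.018 (SOX11) at 6 days. The line difference of the 6 h loss was -0.41 (SOX11) and -0.14 (SOX12) at 3 days, and 0.34 (SOX11), 0.61 (SOX12) and 0.10 (SOX4) at 6 days. The decay difference was -0.27 (SOX11) and -0.18 (SOX4) in Kelly at 3 days, 0.92 (SOX11), 1.10 (SOX12) and 0.32 (SOX4) in Kelly at 6 days, and 0.59 (SOX11) and 0.39 (SOX4) in NGP at 6 days. The duration difference of the SOX12 loss and decay difference in Kelly was -0.48 and 0.46, and the SOX4 effect at 6 h in NGP at 6 days 0.34.

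With GC and length trends removed, the SOX12 line difference at 6 days was -0.36, the Kelly 3-day STM2457 effect 0.40, the NGP 6-day decay difference 0.40, the NGP duration difference 0.028 and the 6-day line difference of the loss 0.55, and the SOX11 one at 3 days was 0.010. The SOX12 line difference at 6 days was called with library size only (-0.34), limma-voom (-0.28), no filter (-0.27) and the same duration only (-0.28). SOX11 in Kelly at 3 days was called with DESeq2 (0.30), the joint fit (0.32), library size only (0.33) and limma-voom (0.31), and at 6 days with DESeq2 (0.23), the joint fit (0.23) and limma-voom (0.25). Its NGP duration difference was -0.0065 with library size only. The SOX4 line difference of the effect at 6 days was called with limma-voom (-0.63), no filter (-0.63) and the same duration only (-0.65). SOX12 in NGP lost its 0 h calls in the joint fit (0.40 and 0.36), and its 6-day decay difference was lost with RLE factors (0.44), the joint fit (0.45), limma-voom (0.46) and the same duration only (0.46).

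Same-numbered libraries correlated in their deviations between -0.046 and 0.049 in Kelly and between -0.034 and 0.11 in NGP, with 0 and 1 of 66 pairs of groups above 0.1. Little deviation was therefore shared by replicate number, which does not show how the libraries were made. The replicate block called SOX11 in Kelly at 3 days (0.31, adjusted p = 0.0477). With GC and length trends removed as well, the block gave SOX12 values of -0.34 (6-day line difference), 0.40 (Kelly 3-day effect), 0.40 (NGP 6-day decay difference), 0.028 (NGP duration difference) and 0.55 (6-day line difference of the loss), and 0.0083 for SOX11 at 3 days.

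Leaving out 1 library at a time, the ranges of results that changed call or sign were, for SOX12, -0.12 to 0.023 and -0.34 to -0.20 (line difference at 3 and 6 days), 0.35 to 0.44 and 0.28 to 0.44 (NGP 0 h effect at 3 and 6 days), -0.11 to 0.047 (NGP duration difference) and 0.38 to 0.54 (NGP 6-day decay difference). For SOX4 they were 0.57 to 0.66 and -0.10 to 0.093 (0 h effect at 6 days in Kelly and NGP), -0.084 to 0.00086 (6 h effect, NGP at 6 days), -0.25 to 0.57, -0.18 to 0.47 and -0.13 to 0.061 (decay difference in Kelly at 3 days and NGP at 3 and 6 days), and for SOX11 -0.0076 to 0.090 (NGP 3-day effect) and -0.037 to 0.061 (NGP duration difference). With 2 libraries per group, a group left with 1 library is assumed to vary like the others. SOX4 had the lowest counts, down to 219 fragments in a library.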
